A study of Mus musculus with 9 samples.

Results

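The miR-30 family was examined in the adipose depots of mice fed a high fat diet (HFD). The 8 members were the rows named miR-30a to miR-30e in the small RNA table that carried the 5p or 3p arms listed here, out of 1251 miRNAs. They comprise 5 arms from the 5p side of the hairpin (miR-30a-5p, miR-30b-5p, miR-30c-5p, miR-30d-5p and miR-30e-5p) and 3 from the 3p side (miR-30a-3p, miR-30c-2-3p and miR-30e-3p). Small RNA was sequenced from brown (BAT), subcutaneous (SAT) and visceral (VAT) adipose tissue to find how miRNA expression differs between depots in obesity. All 9 libraries came from male C57BL/6J mice without a transgene, 5 to 6 weeks old at the start, whose diet gave 45% of energy from fat, 20% from protein and 35% from carbohydrate for 11 weeks, with a 4 hour fast before harvest. BAT was interscapular (libraries 12, 15 and 20), SAT was inguinal (14, 19 and 20) and VAT was epididymal (14, 17 and 20). Every library shares the HFD, so no comparison here speaks to the diet itself. The labels count 3 samples per depot and do not name the mouse behind each, and the study calls them biological replicates.

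A miRNA is cut from a hairpin RNA, and either arm of the hairpin can be loaded into the silencing complex. It then pairs with target mRNAs mainly through its seed, bases 2 to 8 counted from the 5′ end, so arms with the same seed are predicted to share many targets. The 5p arms of the miR-30 family share a seed and are known to rise as preadipocytes differentiate. MiR-30a and miR-30d are known to favour adipogenesis through Runx2, a bone-forming transcription factor, and miR-30b and miR-30c to favour brown and beige fat genes by repressing the corepressor Rip140. The 3p arms have other seeds, and miR-30c-2-3p is known to repress Xbp1, a transcription factor of the unfolded protein response.

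Mature sequences were found for 6 of the 8 members in RefSeq (GRCm38.p6); miR-30b-5p and miR-30d-5p had none in the table used. They are printed 5′ to 3′ with the seed in capitals, to show which arms share a seed and how few bases separate arms whose levels differed between depots. The 3p arm of the second miR-30c hairpin, miR-30c-1-3p, is not a member and is shown because it shares the seed of miR-30c-2-3p.
miR-30a-5p: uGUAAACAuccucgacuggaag
miR-30e-5p: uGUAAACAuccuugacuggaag
miR-30c-5p: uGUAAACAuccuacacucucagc
miR-30a-3p: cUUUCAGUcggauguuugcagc
miR-30e-3p: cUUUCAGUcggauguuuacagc
miR-30c-2-3p: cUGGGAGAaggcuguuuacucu
miR-30c-1-3p: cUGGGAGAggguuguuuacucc

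The first 12 bases of the 3 printed 5p arms were identical. From miR-30a-5p to miR-30e-5p 1 of 22 bases changed (C13U, counted from 1 at the 5′ end), and from miR-30a-5p to miR-30c-5p 5 changed (C13A, G14C, G18C, G19U and A20C). The 3p arms of miR-30a and miR-30e differed only by G18A, and miR-30c-2-3p and miR-30c-1-3p by A9G, C12U and U22C, all outside the seed. Reads that match several places were shared in proportion by the authors. Among the printed arms, the split between those that differ by 1 base, miR-30a against miR-30e, is therefore the least certain. MiR-30b-5p and miR-30d-5p had no sequence to compare, so the certainty of their split from miR-30a-5p was not examined. The same seed as in the 5p arms occurs in miR-384-5p, which was at the lowest value of the table in all 9 libraries.

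The 6 hairpins lie in 3 pairs in the mouse genome (GRCm38, GENCODE M21). Mir30a (chr1:23272269-23272339, plus strand) and Mir30c-2 (chr1:23291701-23291784, plus strand) are 19361 bases apart. Mir30c-1 (chr4:120769534-120769622) and Mir30e (chr4:120772606-120772697) are 2983 bases apart on the minus strand, both in introns of Nfyc, which encodes a subunit of the transcription factor NF-Y. Mir30b (chr15:68337415-68337510) and Mir30d (chr15:68341208-68341289) are 3697 bases apart on the minus strand. Mir30c-2 and Mir30d overlap an exon of the lincRNA genes Gm27028 and Gm20732, and Mir30a and Mir30b lie in no other annotated gene. MiR-30c-5p can come from either miR-30c hairpin, while each 3p arm comes from one of them, as the RefSeq hairpins show with both mature arms in capitals.
Mir30a: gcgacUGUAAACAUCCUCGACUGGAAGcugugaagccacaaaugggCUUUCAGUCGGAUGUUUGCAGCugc
Mir30c-2: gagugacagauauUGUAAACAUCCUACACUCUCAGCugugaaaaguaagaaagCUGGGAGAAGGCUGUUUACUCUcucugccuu
Mir30c-1: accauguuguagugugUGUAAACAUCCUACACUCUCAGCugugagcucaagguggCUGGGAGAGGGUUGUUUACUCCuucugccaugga

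The deposited values are log2 normalised levels, whose lowest value is 3.32 (10 on the linear scale). Per-library depth cannot be read from the files, which hold no counts, and the spread between libraries is the measure of precision. Counts of markers are limma calls at an adjusted p under 0.05, described below. Of markers of brown fat, 4 of 5 were lower in VAT and in SAT than in BAT, against 26.8% and 18.1% of tested miRNAs. Of white fat markers, 3 of 3 were higher in both, against 39.4% and 22.4%, with miR-196a-5p undetected (at the lowest value) throughout BAT. The lists were chosen with earlier results of these data known, so these counts are no independent check of the depots. Summed levels of 6 skeletal muscle miRNAs differed within depots, at 1090, 152000 and 421000 linear units in BAT 12, 15 and 20, 912 to 1750 in SAT, and 912, 6160 and 152000 in VAT 14, 17 and 20. The limma results that involve BAT were therefore also computed without BAT 15, BAT 20 and VAT 20. Markers of other cell types moved with the depots. The sum of 7 myeloid miRNAs was 15.3 to 108 in BAT, where 6 of the 7 were at the lowest value in every library, 797 to 4470 in SAT and 1890 to 2300 in VAT. The sum of 2 endothelial miRNAs was 2950 to 4790 in BAT, 9900 to 12500 in SAT and 11900 to 12800 in VAT. Red cell miRNAs (4) summed to 210000 in every BAT library, 29800 to 39700 in SAT and 31500 to 60000 in VAT. That sum followed miR-486-5p (log2 level 17.68 in every BAT library). MiR-451a went the other way, at 8.82 to 9.71 in BAT, 9.93 to 10.38 in SAT and 11.18 to 11.81 in VAT. In BAT and SAT, 2 of the 4 were at the lowest value in every library. Lymphocyte miRNAs (3) summed to 114000 to 148000 in BAT, 213000 to 310000 in SAT and 84700 to 172000 in VAT. Of these, miR-150-5p was at 14.31 to 14.75 in BAT and 12.50 to 14.11 in VAT. In SAT 14, 19 and 20 it was at 13.56, 13.84 and 16.72. Sums of 2 liver miRNAs were 971 to 6870 in BAT, 455 to 667 in SAT and 996 to 1080 in VAT. The 6 epithelial miRNAs were at the lowest value throughout BAT and reached 20900 in SAT 14 and 1190 in VAT 20, against 79.4 at most elsewhere. The part of these cell types in the miR-30 results was not tested, and in bulk tissue fewer cells of a type and less RNA per cell cannot be told apart.

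All 8 members were detected in all 9 libraries, and the 5p arms led. In BAT, miR-30d-5p ranked 7 to 8 among the 1251 miRNAs, miR-30c-5p 13 to 14 and miR-30a-5p 22 to 26. In SAT, miR-30a-5p ranked 8 to 12, miR-30d-5p 12 to 15 and miR-30c-5p 24 to 27, and in VAT the ranks were 10 to 13, 11 to 14 and 20 to 22. The remaining members ranked 39 to 117. The printed arms are 22 or 23 bases long, so length hardly enters a comparison of their levels, but how well each sequence was captured in the libraries was not tested. By mean log2 level, the order in BAT was miR-30d-5p, miR-30c-5p, miR-30a-5p and miR-30e-5p, with no overlap between neighbours, followed by miR-30a-3p, miR-30b-5p, miR-30e-3p and miR-30c-2-3p, whose neighbours overlapped. In SAT and VAT miR-30a-5p headed the order and overlapped with miR-30d-5p, although it was the higher of the 2 in every library, and miR-30c-5p and miR-30e-5p followed without overlap. MiR-30b-5p and miR-30a-3p overlapped with each other in SAT and in VAT and stood above the other 3p arms. MiR-30e-3p was the lowest member in SAT by a clear gap and overlapped with miR-30c-2-3p in VAT.

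**Figure D1:**
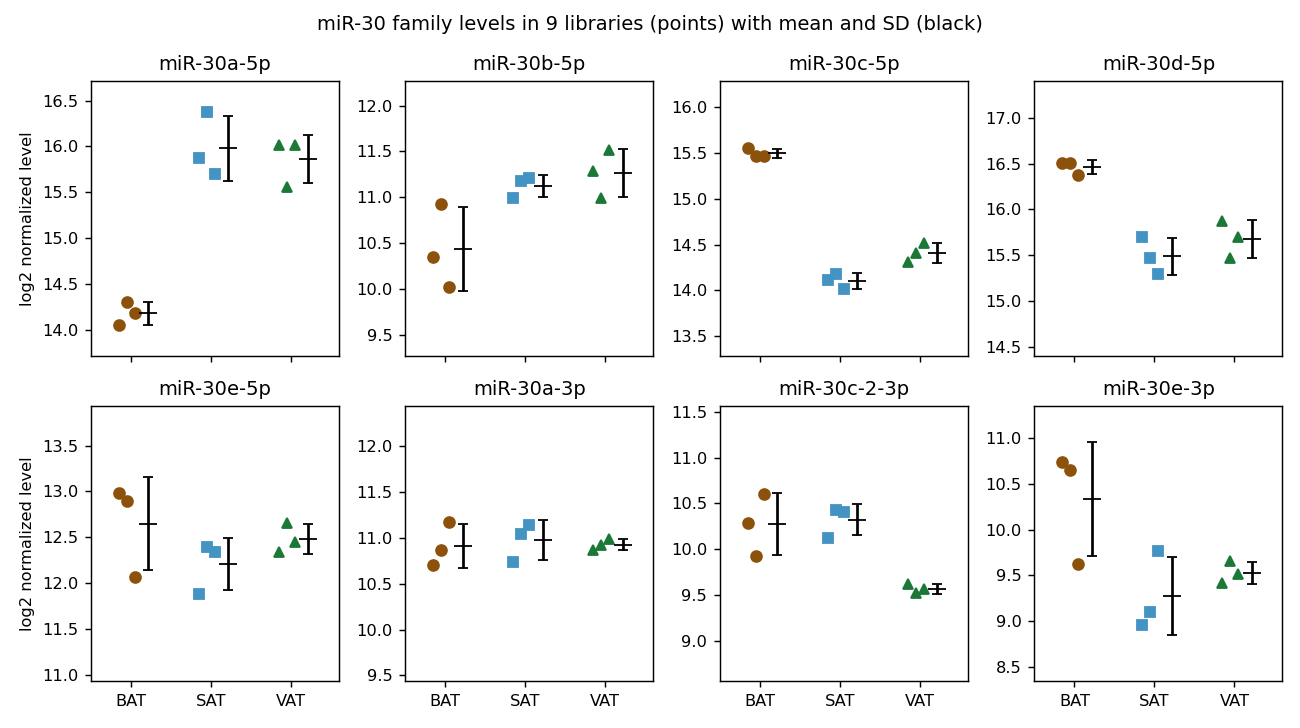
Log2 normalised level (vertical axis, a separate range per panel) of each of the 8 miR-30 members in the 3 BAT, 3 SAT and 3 VAT libraries, with points for libraries and black marks for the mean and SD. MiR-30a-5p sits higher in both white depots than in BAT, miR-30c-5p and miR-30d-5p sit lower, miR-30a-3p stays near 10.9 in BAT and VAT, and miR-30c-2-3p is lower in VAT.

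The summed 5p level of the family moved little, while its make-up changed. On the linear scale the 5 arms summed to 163000 ± 7860 for BAT, 137000 ± 19600 for SAT and 143000 ± 16800 for VAT (SD, n = 3 each). On the log2 scale the sum differed by -0.20 between VAT and BAT, -0.26 between SAT and BAT and 0.066 between VAT and SAT. These sums and the shares that follow are descriptions, with no test. Values at equal rank nearly agree between libraries, so members that exchange ranks can leave the sum little changed. How far this held the sum steady was not tested.

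MiR-30d-5p made up 55.6%, 55.4% and 55.2% of the sum in BAT 12, 15 and 20, 38.9%, 28.9% and 34.3% in SAT 14, 19 and 20, and 38.9%, 36.6% and 35.1% in VAT 14, 17 and 20. MiR-30c-5p made up 28.7%, 26.9% and 29.3% of it in BAT, 13.0%, 11.8% and 14.1% of it in SAT, and 13.1%, 17.6% and 15.5% of it in VAT, in the same order of libraries. MiR-30a-5p made up 10.1%, 12.04% and 12.03% of it in BAT, 43.9%, 54.3% and 45.2% of it in SAT, and 43.0%, 38.9% and 43.8% of it in VAT. By sequencing, the BAT libraries were thus led by miR-30d-5p and miR-30c-5p, and the white depots by miR-30a-5p and miR-30d-5p. None of the 3 shares overlapped between BAT and either white depot. Together these 3 arms held 93.1% to 96.5% of the sum in every library. The share of miR-30e-5p was 4.05% ± 1.10 for BAT, 3.54% ± 0.83 for SAT and 4.09% ± 0.99 for VAT (SD, n = 3 each), and that of miR-30b-5p 0.868% ± 0.255, 1.66% ± 0.31 and 1.73% ± 0.17.

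**Figure D2:**
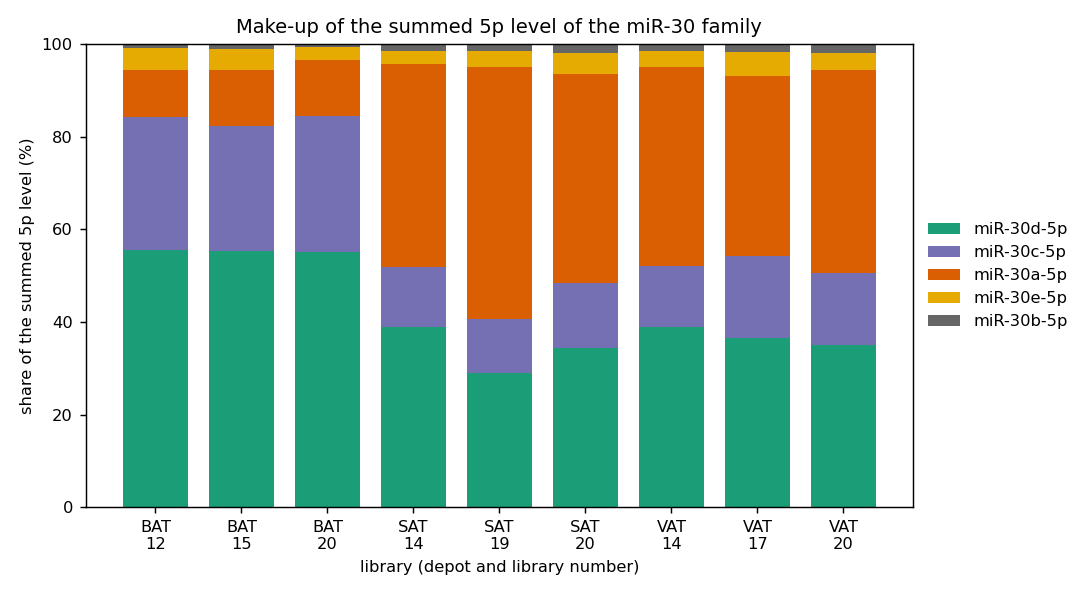
Share of each 5p arm in the summed linear 5p level of the miR-30 family (vertical axis, percent) in each of the 9 libraries (horizontal axis, depot and library number). MiR-30a-5p takes 10.1% to 12.04% in the BAT libraries and 38.9% to 54.3% in the SAT and VAT libraries, where the shares of miR-30c-5p and miR-30d-5p are smaller.

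Each pair of depots was compared with limma over 343 miRNAs, each detected (above the lowest value) in 3 or more libraries, and a miRNA was called at an adjusted p under 0.05 (Benjamini-Hochberg over the 343). All 8 members passed this filter. In the VAT/BAT comparison 4 of 8 members were called, 1 higher and 3 lower in VAT, against 66.2% of all tested miRNAs, with 39.4% higher and 26.8% lower. For 5 members the VAT and BAT libraries had no overlap, against 72% of tested miRNAs. In the SAT/BAT comparison, which shares the 3 BAT libraries, 3 of 8 were called, 1 higher and 2 lower in SAT, against a background of 40.5%, with 22.4% higher and 18.1% lower, and 4 did not overlap, against 52.5%. In the VAT/SAT comparison 1 of 8 was called, lower in VAT, against 16% called, with 8.45% higher and 7.58% lower, and 2 did not overlap, against 39.4%. The median log2 fold change of the members was -0.44, -0.20 and 0.16 in the 3 comparisons, and that of all tested miRNAs 0.40, 0.26 and 0.10. The shares of members called were near or below the background, and the called members went in both directions in the comparisons with BAT.

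**Figure D3:**
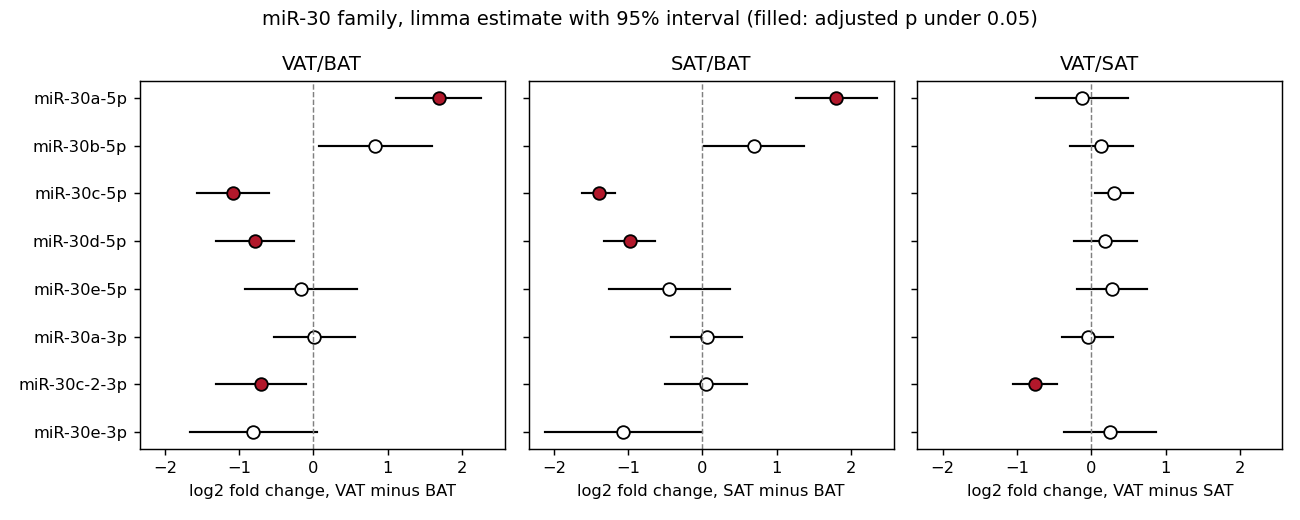
Log2 fold change of each miR-30 member (horizontal axis) in each comparison of 2 depots, as limma estimates with 95% confidence intervals and filled points for an adjusted p under 0.05. MiR-30a-5p lies to the right in both comparisons with BAT, miR-30c-5p and miR-30d-5p to the left, and miR-30c-2-3p to the left in the 2 comparisons that involve VAT.

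In the sequencing values, miR-30a-5p was higher in both white depots than in BAT. Its log2 level was 14.05, 14.31 and 14.18 in BAT 12, 15 and 20, 15.87, 16.38 and 15.70 in SAT 14, 19 and 20, and 16.02, 15.56 and 16.02 in VAT 14, 17 and 20. The lowest white fat library stood more than a log2 unit above the highest BAT library. The level was 3.21-fold higher in VAT than in BAT (log2 fold change 1.68, SE 0.24, 95% interval 1.11 to 2.26, adjusted p = 0.00138). It was 3.49-fold higher in SAT than in BAT (1.80, SE 0.21, adjusted p = 0.00332). For VAT/BAT, the paper reports that quantitative PCR of this arm went the other way from its sequencing. VAT and SAT overlapped, and their difference was -0.12 on the log2 scale (95% interval -0.74 to 0.50, adjusted p = 0.775). Without BAT 15, BAT 20 and VAT 20 the log2 fold changes were as large, 1.73 in VAT/BAT and 1.93 in SAT/BAT, but with 1 BAT library left the adjusted p values were 0.0820 and 0.0643.

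MiR-30c-5p, which has 2 source hairpins, had the opposite pattern, with close replicates. Its log2 level was 15.56, 15.47 and 15.47 in BAT 12, 15 and 20, 14.11, 14.18 and 14.02 in SAT 14, 19 and 20, and 14.31, 14.41 and 14.52 in VAT 14, 17 and 20. No library of 1 depot overlapped with another depot, and BAT was highest and SAT lowest. The level was 2.12-fold lower in VAT than in BAT (log2 fold change -1.09, SE 0.20, adjusted p = 0.00395) and 2.63-fold lower in SAT than in BAT (-1.39, SE 0.086, adjusted p = 0.000403). The VAT/SAT difference of 0.31 did not pass the test (95% interval 0.051 to 0.57, adjusted p = 0.101). MiR-30c-5p was called in both comparisons with BAT under every alternative tried, including without the 3 libraries high in muscle miRNAs (-1.20 with adjusted p = 0.0385, and -1.45 with adjusted p = 0.0103).

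MiR-30d-5p, the most abundant member in BAT, followed miR-30c-5p. Its log2 level was 16.51, 16.51 and 16.38 in BAT 12, 15 and 20, 15.70, 15.47 and 15.30 in SAT 14, 19 and 20, and 15.87, 15.47 and 15.70 in VAT 14, 17 and 20. Every BAT library was above every white fat library, and SAT and VAT overlapped. The level was 1.72-fold lower in VAT than in BAT (log2 fold change -0.79, SE 0.22, adjusted p = 0.0196) and 1.97-fold lower in SAT than in BAT (-0.98, SE 0.13, adjusted p = 0.00484). The VAT/SAT difference was 0.19 (95% interval -0.23 to 0.61, adjusted p = 0.481). The VAT/BAT call was lost without BAT 12 (adjusted p = 0.0593), relative to miR-191-5p (0.0598) and without the 3 libraries high in muscle miRNAs (-0.84, adjusted p = 0.152). The SAT/BAT call was lost in the last of these (-1.02, adjusted p = 0.0715).

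Within a library, the balance of miR-30a-5p against miR-30d-5p and against miR-30c-5p moved more than any member did alone. Both relatives changed in the opposite direction to miR-30a-5p, so the larger change follows from those values and is no separate result. The log2 difference of miR-30a-5p minus miR-30d-5p was -2.28 ± 0.15 for BAT, 0.49 ± 0.38 for SAT and 0.18 ± 0.12 for VAT (SD, n = 3 each). That of miR-30a-5p minus miR-30c-5p was -1.32 ± 0.17 for BAT, 1.88 ± 0.28 for SAT and 1.45 ± 0.28 for VAT. Both differences were negative in every BAT library and positive in every white fat library. The change from BAT was 2.47 in VAT and 2.78 in SAT for the first, and 2.77 and 3.20 for the second, each with an exact two-sided permutation p of 0.1, the smallest that 3 libraries against 3 allow. Such a difference within a library does not depend on a scaling factor per library. It can depend on a step that sets values by rank, such as quantile normalisation, which these values appear to have had.

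MiR-30b-5p and miR-30e-5p did not pass the test in any comparison. The log2 level of miR-30b-5p was 10.34, 10.93 and 10.02 in BAT 12, 15 and 20, 10.99, 11.18 and 11.21 in SAT 14, 19 and 20, and 11.29, 10.99 and 11.51 in VAT 14, 17 and 20. Every white fat library was above every BAT library, by a narrow margin over BAT 15. On the log2 scale VAT exceeded BAT by 0.83 (SE 0.31, adjusted p = 0.0535) and SAT exceeded it by 0.70 (SE 0.26, adjusted p = 0.0933). Without BAT 15 the VAT/BAT value was 1.08 with an adjusted p of 0.0203, and it passed the test in 5 of 16 alternatives. Without the 3 libraries high in muscle miRNAs the values were 0.80 in VAT/BAT (adjusted p = 0.116) and 0.78 in SAT/BAT (adjusted p = 0.0490). MiR-30b-5p and miR-30d-5p come from neighbouring hairpins, and miR-30d-5p minus miR-30b-5p was 6.03 ± 0.40 log2 units in BAT, 4.36 ± 0.32 in SAT and 4.42 ± 0.21 in VAT (SD, n = 3 each; exact permutation p = 0.1 for each white depot against BAT).

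The log2 level of miR-30e-5p was 12.98, 12.89 and 12.07 in BAT 12, 15 and 20, 11.88, 12.40 and 12.34 in SAT 14, 19 and 20, and 12.34, 12.65 and 12.45 in VAT 14, 17 and 20. BAT 20 was about as low as the white fat libraries and the other BAT libraries were higher. Log2 fold changes were -0.17 in VAT/BAT (95% interval -0.92 to 0.59, adjusted p = 0.651) and -0.44 in SAT/BAT (-1.26 to 0.37, adjusted p = 0.311). BAT 20 also had the highest sum of muscle miRNAs, and without BAT 15, BAT 20 and VAT 20 the log2 fold changes were -0.49 and -0.78, with adjusted p values of 0.222 and 0.189.

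MiR-30c-2-3p, the arm known to repress Xbp1, had lower expression in VAT than in the other depots. Its log2 level was 10.29, 9.93 and 10.61 in BAT 12, 15 and 20, 10.13, 10.43 and 10.41 in SAT 14, 19 and 20, and 9.62, 9.52 and 9.57 in VAT 14, 17 and 20. The VAT libraries lay close together and below every BAT and SAT library, while BAT and SAT overlapped. The level was 1.69-fold lower in VAT than in SAT (log2 fold change -0.75, SE 0.12, 95% interval -1.05 to -0.46, adjusted p = 0.0258) and 1.63-fold lower in VAT than in BAT (-0.71, SE 0.25, adjusted p = 0.0451). SAT and BAT differed by 0.049 (95% interval -0.50 to 0.60, adjusted p = 0.901). Both calls stood close to the threshold. The call was lost in 8 of 16 alternatives in VAT/SAT and in 9 of 16 in VAT/BAT. Both were lost with no filter (adjusted p = 0.163 in VAT/SAT and 0.149 in VAT/BAT) and relative to miR-191-5p (0.266 and 0.153). In VAT/SAT the adjusted p was 0.0618 without SAT 19, 0.0650 without SAT 20, 0.0525 without VAT 14 and 0.0666 without VAT 20, with log2 fold changes of -0.70 to -0.78. In VAT/BAT it was 0.103 without BAT 12, 0.0646 without BAT 20 and 0.0748, 0.0987 and 0.0854 without VAT 14, 17 and 20, with log2 fold changes of -0.54 to -0.73. Without the 3 libraries high in muscle miRNAs the VAT/BAT value was -0.72 (adjusted p = 0.0624).

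MiR-30a-3p, the other arm of the miR-30a hairpin, showed no difference between depots beyond its spread. Its log2 level was 10.70, 10.87 and 11.18 in BAT 12, 15 and 20, 10.74, 11.05 and 11.15 in SAT 14, 19 and 20, and 10.87, 10.93 and 10.99 in VAT 14, 17 and 20. The 3 depots overlapped throughout. In limma's F test over the 3 depots, which called 65.9% of tested miRNAs, it had the smallest F of the 343 (F = 0.043, adjusted p = 0.958). The VAT/BAT difference was 0.011 (95% interval -0.53 to 0.56) and the SAT/BAT difference 0.061 (-0.42 to 0.54), signs that turned under other scalings or with a library left out. The intervals leave room for changes of up to 0.56 log2 units.

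MiR-30e-3p was highest in 2 of the BAT libraries. Its log2 level was 10.74, 10.65 and 9.62 in BAT 12, 15 and 20, 8.96, 9.10 and 9.76 in SAT 14, 19 and 20, and 9.42, 9.65 and 9.52 in VAT 14, 17 and 20. BAT 20 lay within the range of both white depots. For miR-30e-5p it lay within the range of SAT and below every VAT library. Log2 fold changes were -0.81 in VAT/BAT (SE 0.35, adjusted p = 0.0850) and -1.06 in SAT/BAT (SE 0.40, adjusted p = 0.0977). Without BAT 20, both passed the test, at -1.17 (adjusted p = 0.00405) and -1.42 (adjusted p = 0.0278), and without the 3 libraries high in muscle miRNAs they were -1.20 (adjusted p = 0.0663) and -1.46 (adjusted p = 0.133).

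The sequencing values put the 5p arm of miR-30a higher relative to its 3p arm in the white depots than in BAT. Within a library, miR-30a-5p minus miR-30a-3p was 3.35, 3.44 and 3.00 log2 units in BAT 12, 15 and 20, 5.13, 5.33 and 4.55 in SAT 14, 19 and 20, and 5.15, 4.63 and 5.03 in VAT 14, 17 and 20. No white fat library overlapped with BAT. The 5p arm was 9.59 times as high as the 3p arm in BAT, 32.1 times in SAT and 30.6 times in VAT. This arm difference was 1.67 larger in VAT than in BAT (SE 0.32, 95% interval 0.92 to 2.42, adjusted p = 0.00602 over 84 hairpins with both arms tested, of which 47.6% were called). It was 1.74 larger in SAT than in BAT (SE 0.50, adjusted p = 0.0299, 28.6% called). VAT minus SAT was -0.069 (adjusted p = 0.904, 14.3% called). The VAT/BAT call held under each of the 11 alternatives run on arm differences. These did not include other filters, other scalings or the replicate block. Without the 3 libraries high in muscle miRNAs the change was 1.54. The SAT/BAT call was lost without BAT 12, BAT 15 or SAT 19 (adjusted p = 0.0787, 0.0506 and 0.0883), without the 3 libraries (1.66, adjusted p = 0.132) and with the lowest value subtracted before log2 (1.74, adjusted p = 0.0718).

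The same difference for miR-30e was 2.31 ± 0.12 for BAT, 2.93 ± 0.36 for SAT and 2.95 ± 0.043 for VAT (SD, n = 3 each). The white fat libraries did not overlap with BAT, but the changes of 0.64 in VAT/BAT (adjusted p = 0.103) and 0.62 in SAT/BAT (adjusted p = 0.349) did not pass the test. The VAT/BAT change passed without BAT 20 (0.71, adjusted p = 0.0453), with 40 added to the linear values (0.61, adjusted p = 0.0264) and without moderation (0.64, adjusted p = 0.0104). Without the 3 libraries high in muscle miRNAs the changes were 0.72 (adjusted p = 0.313) and 0.68 (adjusted p = 0.456). Whether the change for miR-30a differed from that for miR-30e was not tested.

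**Figure D4:**
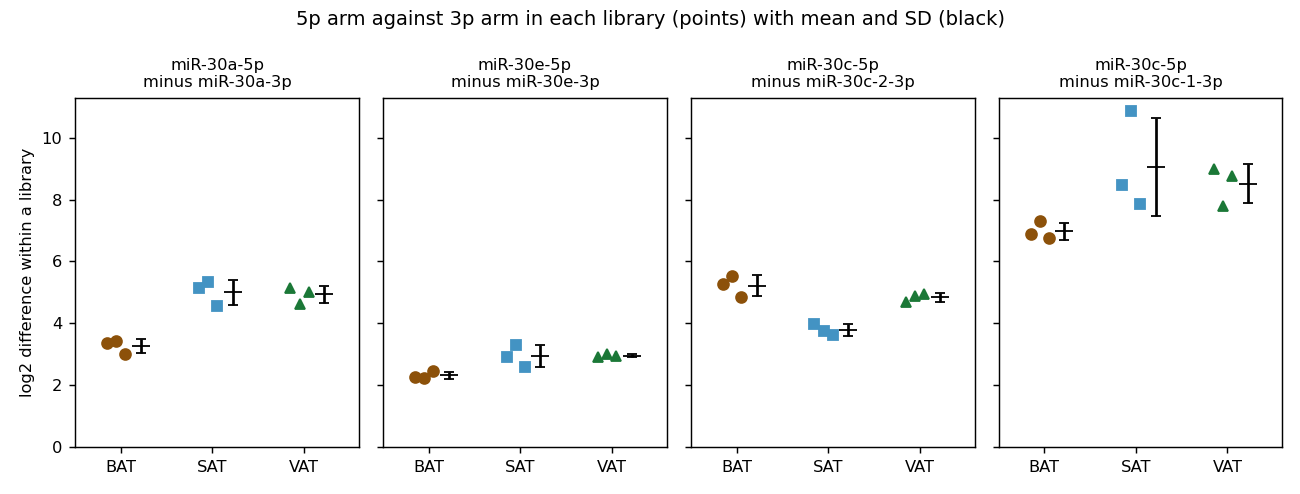
Log2 difference between a 5p arm and a 3p arm in the same library (vertical axis) for miR-30a, miR-30e and miR-30c against each of its 3p arms, with points for the BAT, SAT and VAT libraries and black marks for the mean and SD. The miR-30a difference rises from 3.26 in BAT to 5.00 in SAT and 4.93 in VAT, while miR-30c-5p lies 5.22 above miR-30c-2-3p in BAT and 3.78 above it in SAT.

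MiR-30c has 2 hairpins with 1 common 5p sequence, so its arms were set side by side without a hairpin test. MiR-30c-5p minus miR-30c-2-3p was 5.22 ± 0.34 for BAT, 3.78 ± 0.19 for SAT and 4.84 ± 0.14 for VAT (SD, n = 3 each). The SAT libraries lay below those of both other depots. The 3p arms of the 2 hairpins separated between depots. The log2 level of miR-30c-1-3p was 8.67, 8.17 and 8.70 in BAT 12, 15 and 20, 5.64, 3.32 and 6.16 in SAT 14, 19 and 20, and 5.33, 6.62 and 5.76 in VAT 14, 17 and 20. It was lower in every white fat library than in BAT, with SAT 19 at the lowest value of the table. The change was -2.61 log2 units from BAT to VAT (SE 0.39, adjusted p = 0.00162) and -3.47 from BAT to SAT (SE 0.82, adjusted p = 0.0258). The SAT/BAT call was lost without any 1 of the BAT libraries or SAT 14 (adjusted p of 0.0604 to 0.0823), with the lowest value subtracted (0.0993) and with no filter (0.168). Without the 3 libraries high in muscle miRNAs both calls were lost, at -2.70 (adjusted p = 0.148) and -3.63 (adjusted p = 0.225).

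MiR-30c-2-3p stood 1.76 ± 0.15 log2 units above miR-30c-1-3p in BAT, 5.28 ± 1.59 in SAT and 3.67 ± 0.71 in VAT (SD, n = 3 each; exact permutation p = 0.1 for each white depot against BAT). The 2 hairpins lie on chromosomes 1 and 4, and the 3p arms of the chromosome 4 pair, miR-30c-1-3p and miR-30e-3p, both had their highest mean in BAT. The remaining 3p arms were near the limit of the table. MiR-30d-3p was at the lowest value in all BAT libraries, at 4.55, 3.32 and 4.96 in SAT 14, 19 and 20 and at 4.87, 5.87 and 4.59 in VAT 14, 17 and 20. It was called higher in VAT than in BAT (log2 fold change 1.79), and the call was kept in 13 of 15 alternatives. The SAT/BAT change of 0.96 did not pass the test (SE 0.46, adjusted p = 0.157). Both sizes depend on the lowest value in BAT. MiR-30b-3p was at the lowest value in all BAT and SAT libraries and at 3.54, 3.32 and 3.63 in VAT, and it did not pass the filter.

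Patterns were compared by the root mean square difference of log2 levels over the 9 libraries, after each miRNA was centred on its own mean. The 9 points share 3 depots and the normalisation, so these are descriptions. MiR-30c-5p and miR-30d-5p were each other's nearest miRNA among all tested, at 0.23, against medians of 1.22 and 1.18 over the other miRNAs, although their hairpins lie on different chromosomes. MiR-574-3p (0.29 and 0.26) was near both, miR-361-3p (0.30) was near miR-30c-5p and miR-484 (0.24) near miR-30d-5p. From miR-30a-5p, the same arms were far, with miR-30d-5p in place 198 (1.26) and miR-30c-5p in place 226 (1.43), and miR-30e-5p, 1 base apart in sequence, was in place 167 (1.04). The nearest miRNAs to miR-30a-5p were miR-532-5p (0.29), miR-125b-2-3p (0.31) and miR-148a-5p (0.31). Its neighbour on chromosome 1, miR-30c-2-3p, was in place 168 (1.05), and was itself most like let-7b-5p (0.15), miR-676-3p (0.19) and miR-532-3p (0.20).

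For miR-30b-5p the nearest were miR-28a-5p (0.29), miR-28c (0.29) and miR-181c-5p (0.30), and for miR-30e-5p they were miR-652-3p (0.19), miR-339-3p (0.25) and miR-125b-5p (0.26). MiR-30e-3p was nearest to miR-3963 (0.28), miR-484 (0.32) and miR-361-3p (0.32). The flat miR-30a-3p was nearest to let-7d-5p (0.28) and to miR-3096a-5p and miR-3096b-5p (0.27 each), and the latter were undetected throughout BAT and SAT. Likeness to a miRNA at the lowest value shows only that miR-30a-3p hardly varied.

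Other miRNA families with a shared seed were read beside miR-30, against the same background of 39.4% of tested miRNAs higher and 26.8% lower in VAT/BAT, of 22.4% higher and 18.1% lower in SAT/BAT, and of 8.45% higher and 7.58% lower in VAT/SAT. Of 9 let-7 5p arms, a family that restrains growth pathways, 7 were higher and 1 lower in VAT than in BAT, with a median log2 fold change of 1.71, and 6 were higher in SAT than in BAT (median 1.49). In VAT/SAT, 2 let-7 arms were higher and 3 lower. Both miR-26 arms, known to rise in adipogenesis, were higher in VAT (median 2.85) and SAT (median 2.49) than in BAT. Of 3 miR-29 arms, known to repress collagen genes, 2 were higher in VAT and 1 in SAT. The log2 fold changes of the 8 miR-30 members spanned 2.77 in VAT/BAT and 3.20 in SAT/BAT, with called members on both sides of 0, and those of let-7 spanned 3.29 and 2.79.

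Of 14 miRNAs known to favour brown or beige fat, 13 were tested, and 4 were higher and 6 lower in VAT than in BAT, as also in SAT, against 26.8% and 18.1% of all tested miRNAs lower. This list shares miR-193b-3p, miR-365-3p, miR-455-3p and miR-378a-3p with the brown fat markers above, and miR-196a-5p with the white fat markers. Among those lower in VAT were miR-193b-3p (-3.61, adjusted p = 0.000865) and miR-378a-3p (-2.32, adjusted p = 0.00556), and among those higher were miR-26b-5p (3.44, adjusted p = 0.000216) and miR-196a-5p, which was at the lowest value in BAT. Of 9 known to restrain it, 8 were tested, and 4 were higher and none lower in VAT and in SAT than in BAT, against 39.4% of all tested miRNAs higher in VAT/BAT and 22.4% in SAT/BAT. Examples are miR-27b-3p (1.35 in VAT/BAT, adjusted p = 0.00242) and miR-34a-5p (1.17, adjusted p = 0.0262). In VAT/SAT, 1 of each list was higher in VAT. Within the miR-30 family, miR-30c-5p was lower in the white depots, whereas miR-30b-5p, which has the same reported target, had higher values there without passing the test.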

How the data were processed

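The samples were 3 each of BAT, SAT and VAT from HFD fed mice, profiled by small RNA sequencing. Upstream, the authors used miRBase hairpins as the alignment target and quantified mature arms. A read with more than 1 match counted fractionally, and values were scaled by library total, with an offset of 40. The build per the labels is mm10, and the aligner and miRBase version are not given in the sources used here. The deposited values are log2 levels of 1251 miRNAs with a lowest value of 10 before log2. Values at equal rank agree between libraries within 0.05 for 80 of the 100 top ranks, as quantile normalisation leaves them, a step the methods do not name. Per-library depth cannot be read from the files, which hold no counts.

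Values were used as deposited. Pairwise comparisons used limma 3.58.1 (R 4.3.3; lmFit and eBayes, two-sided, no covariate) on the 6 libraries of both depots and on 343 miRNAs detected in 3 or more of the 9 libraries, with Benjamini-Hochberg adjustment over the 343. The F test used all 9. Arm differences were fitted likewise over 84 hairpins. Single differences used exact permutation tests (scipy 1.17.1). The test was checked on simulated data. Alternatives were other offsets, filters and scalings, all libraries in 1 fit, the library number as replicate block, no moderation, and each library left out. Leaving out the libraries high in muscle miRNAs was chosen after seeing the data. The miRNAs named are the members, other miR-30 rows, the 3 nearest patterns per member and examples from the lists. Members and lists were chosen with earlier results of these data known.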

Additional observations from a re-analysis of the deposited data

How the results depend on the processing

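For miR-30a-5p, miR-30c-5p and miR-30d-5p in the VAT/BAT and SAT/BAT comparisons, direction and call were kept in 90 of 96 settings. In VAT/BAT, 4 members were called; 2 were called relative to miR-191-5p, 2 to 5 with 1 library left out (2 without BAT 12) and 1 without BAT 15, BAT 20 and VAT 20, when BAT is 1 library assumed to vary like the others. Of all miRNAs in VAT/BAT, 227 were called, against 128 with no filter, 120 among the miRNAs above the median mean, 130 without those 3 libraries and 187 to 236 with 1 library left out. In SAT/BAT, 139 were called, against 74 with no filter, 182 with all libraries in 1 fit and 112 to 142 with 1 left out, and 3 to 4 members. In VAT/SAT, the 1 member called fell to 0 with no filter, relative to miR-191-5p, with all 9 libraries in 1 fit and without SAT 19, SAT 20, VAT 14 or VAT 20 (0 to 1). Of all miRNAs in VAT/SAT, 55 were called, against 4 with no filter, 2 relative to miR-191-5p, 30 with all 9 in 1 fit, 13 without moderation and 0 to 49 with 1 left out. The 0 was without SAT 19, where limma gave 104 at an unadjusted p under 0.05. Of the calls in VAT/SAT 52.7% were higher in VAT, and 100% relative to miR-191-5p. Scaling to miR-191-5p moved the median of all tested miRNAs in SAT/BAT from 0.26 to 0.088. The causes were not tested.

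The numbers 14 and 20 occur in both SAT and VAT, and BAT has only 20 in common with them. Same-numbered libraries correlated at 0.0464 on average in their deviations and others at -0.00745, and nothing says that a number marks a mouse. With the number as replicate block, VAT/SAT gave 55 miRNAs and 1 member over 6 libraries (within-block correlation 0.0102), and 30 miRNAs and 0 members over all 9 (0.0379).

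Differences near 0 changed sign. For miR-30a-3p, VAT/BAT was -0.021 after a shift to a common median and -0.095 to 0.14 with 1 library left out, SAT/BAT was -0.11 and VAT/SAT 0.12 relative to miR-191-5p, and with 1 left out they were -0.046 to 0.19 and -0.17 to 0.035. For miR-30c-2-3p, SAT/BAT was -0.12 relative to miR-191-5p and -0.12 to 0.21 with 1 left out. For miR-30a-5p, VAT/SAT was 0.053 relative to miR-191-5p and -0.26 to 0.079 with 1 left out. With 1 left out, miR-30e-5p in VAT/BAT was -0.46 to 0.0011, and the arm differences in VAT/SAT were -0.30 to 0.093 for miR-30a and -0.15 to 0.20 for miR-30e. Without counts, the counting error of the lower 3p arms could not be computed.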
